A study of Mus musculus with 69 samples.

Results

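DNA repair genes were taken as 37 named mouse genes out of 21887 protein-coding genes, and the peaks of 2 histone marks were summed from 50 kb before to 50 kb after the annotated body of each gene. The 37 comprised 9 genes of homologous recombination, 6 of end joining, 4 damage kinases, 5 Fanconi anaemia genes, 2 of mismatch repair, 8 of base excision and single-strand break repair and 3 of nucleotide excision repair. They are a list by name and function, with no peak value in the rule. The quantity used throughout is the covered length, the number of bases in that window that lie under a peak of a list. The windows held other genes too, a median of 3 with a range from 0, as around Xrcc2, to 8, as around Fancd2, so covered bases are bases near a gene and not bases assigned to it.

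H3K4me1, a methyl mark of enhancers, and H3K27ac, an acetyl mark of active promoters and enhancers, were mapped by ChIPmentation, in which antibody-bound chromatin is tagged with the Tn5 transposase. The cells were haematopoietic stem cells (HSCs), which renew the blood, and haematopoietic progenitor cells (HPCs), sorted from mice that were wild type, Kmt2c f/+; Vav-Cre (1 conditional allele) or Kmt2c f/f; Vav-Cre (both alleles conditional). Kmt2c encodes MLL3, a methyltransferase that places H3K4me1, and Vav-Cre is active in blood-forming cells in general, so the mutant allele was not limited to HSCs. Of 69 samples, 63 belonged to 18 groups with 1 pooled peak list each and 6 were input chromatin, not analysed here.

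The H3K4me1 lists at 8 weeks of age covered untreated HSCs and HPCs of the 3 genotypes, from 3 libraries per group. At 16 weeks, HSCs of wild-type and Kmt2c f/f; Vav-Cre mice had received 3 rounds, 3 weeks apart, of the PBS vehicle or of 5-fluorouracil (5FU), a pyrimidine analogue given as chemotherapy, at 150 mg/kg. Those groups gave H3K27ac lists from 3 libraries each and H3K4me1 lists from 4 libraries (wild type, PBS), 6 (wild type, 5FU), 3 (Kmt2c f/f, PBS) and 4 (Kmt2c f/f, 5FU). HPCs of mice aged 8 to 10 weeks had received either PBS or IL-1, a cytokine of inflammation, at 0.5 µg daily over 3 days and gave H3K27ac lists from 4 libraries each in wild-type and Kmt2c f/f; Vav-Cre mice. The sex of the mice is not given in the sources used here. Because the authors' lists pool the libraries of a group, no value below has a replicate error, no test between conditions was possible, and a difference is a difference between 2 lists.

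Cells repair different lesions by different routes. Double-strand breaks are sensed by ATM and by the Ku proteins (Xrcc5 and Xrcc6) and are rejoined either by homologous recombination, where BRCA1, PALB2 and BRCA2 act together and a sister chromatid is the template, or by end joining with DNA-PK (Prkdc) and ligase IV (Lig4). Uracil and 5-fluorouracil in DNA are cut out at the head of base excision repair by glycosylases that include SMUG1, TDG and MBD4. PARP1, XRCC1 and a ligase then close the strand, and mismatch repair and the Fanconi anaemia pathway deal with mispairs and crosslinks. Resting HSCs are known to favour end joining, while cycling progenitors can use homologous recombination.

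The lists differed in strength. The H3K27ac lists covered between 33.4 and 45.9 Mb and the H3K4me1 lists at 8 weeks between 86.1 and 113.5 Mb. The HPC lists of H3K27ac held 37002 to 41314 peaks, with 36.7% to 47.3% of them at a −log10 q of 5 or more. The HSC lists of H3K27ac held 51112 to 67143 peaks, with 15.7% to 29.0% at that level. At 16 weeks, 3 H3K4me1 lists covered from 44.2 to 54.0 Mb, with 0.635% to 1.04% of their peaks at a −log10 q of 5 or more by the authors' peak caller, while the list of wild-type HSCs after 5FU covered 116.0 Mb with 28.1% of its peaks at that level. That list pools 3 libraries of each of 2 library series by their names. Markers went with the labelled cells: over 9 HSC marker genes the summed H3K27ac length was 128091 to 175271 bases in the HSC lists and 65230 to 82267 in the HPC lists, and over 7 HPC marker genes 47926 to 62505 against 90013 to 117535. Tek, an HSC marker, was at 0 in all 4 H3K27ac lists of HPCs. Ctsg, an HPC marker, was at 0 in all 4 HSC lists but also in both wild-type HPC lists. By H3K4me1, the HSC marker sum was 344743 to 514661 bases in HSC lists at 8 weeks and 200919 to 205222 in HPC lists. In the 3 short HSC lists at 16 weeks it was 178819 to 202405, not above the HPC lists. The HPC marker sum by H3K4me1 was 188339 to 189473 in HPC lists and 65783 to 144245 in HSC lists. Over 7 mature lymphoid markers the summed H3K27ac length was 31151 to 44338 bases in HSC lists and 34529 to 45116 in HPC lists, with Cd8a at 0 in all 8. Over 6 stroma and endothelium markers it was 4947 to 10455 and 14329 to 21922 bases, with Cxcl12 and Lepr at 0 in all 8, and the part of these cells in the results below was not tested. In such bulk data fewer cells with a peak and a weaker peak in every cell cannot be told apart.

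H3K27ac marked the starts of nearly all of the repair genes. A transcription start was annotated in the promoter table for 32 of the 37. The other 5 (Rad51d, Xrcc2, Prkdc, Fancd2 and Xpc) are left out of counts at annotated starts. Where bases, regions or ratios are split by place below, these 5 are included, with either end of the gene body taken as the start. An H3K27ac peak lay within 1 kb of the start of 30 or 31 of the 32 genes in the 4 HPC lists and of 27 to 29 in the 4 HSC lists. The background of all genes with an annotated start was 48.8% to 50.6% over the 8 lists (49.5% in Kmt2c f/f HPCs after IL-1, 50.1% in Kmt2c f/f HPCs, 48.8% in wild-type HPCs after IL-1, 49.1% in wild-type HPCs, 48.8% in both Kmt2c f/f HSC lists, 50.5% in wild-type HSCs after 5FU and 50.6% in wild-type HSCs). Genes of like coverage, defined as the 9882 genes whose mean covered length over the 18 lists lay between 2873 and 13237 bases (the 10th and 90th percentile of the 37 genes), had such a peak in 63.9% to 66.0%. In all 8 lists, 26 of the 32 repair genes had it, against 42.7% of all genes.

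The strongest of these peaks lay at Brca1, which encodes a scaffold of homologous recombination. Only 0.115% to 0.741% of the peaks of a list had a higher −log10 p than the Brca1 start peak, whose fold enrichment by the authors' caller was 17.5 to 38.9 and whose width was 1629 to 3117 bases. Tdg, the thymine DNA glycosylase, followed with 0.894% to 3.56% of peaks stronger, then Rad51c, a gene of homologous recombination, with 2.15% to 8.23%, and Brca2, a mediator of homologous recombination, with 1.18% to 10.1%. The start region was of nearly the same length at Tdg in every list, 1960 to 2189 bases. At the other end, Fanca, a core subunit of the Fanconi complex, had no H3K27ac peak within 1 kb of its annotated start in any of the 8 lists, although its window held regions over the starts of Cdk10 and Spata2l in all 8. Smug1, a uracil glycosylase, had a start peak in 3 of 8 lists, of 829 bases in Kmt2c f/f HPCs, 450 in Kmt2c f/f HPCs after IL-1 and 323 in wild-type HPCs after IL-1. Ercc1, a subunit of the nuclease that cuts 5′ of a lesion, had one in the 4 HPC lists (388 to 912 bases) and in none of the HSC lists. The other genes that lacked a start peak in some list were Rad54l in both PBS lists of HSCs, Lig1 in wild-type PBS and Kmt2c f/f 5FU HSCs, and Parp1 in Kmt2c f/f PBS HSCs.

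The promoter sequences of 7 of these genes are printed to set the strongest starts (Brca1, Tdg) beside genes whose acetylation differed between cell types (Msh6, Xrcc6, Atm) and beside the 2 with the fewest start peaks (Smug1, Fanca). Each runs 5′ to 3′ on the strand of the gene from 250 bases before to 50 bases after its start, from the RefSeq promoter table on GRCm38.p6. Capitals mark matches on either strand to 7 motifs. The CCAAT box was searched as written. The box bound by SP factors was searched as GGGCGG. The core of ETS factor sites was searched as CCGGAAG. The E2F site was searched in its form TTTGGCGC and in a second form, which reads TTTCCCGC. The cyclic AMP element was searched as TGACGTCA, and the cell cycle element called CHR as TTTGAA; matches that overlap are marked as 1 run.
Brca1 (chr11:101551906-101552205, minus strand): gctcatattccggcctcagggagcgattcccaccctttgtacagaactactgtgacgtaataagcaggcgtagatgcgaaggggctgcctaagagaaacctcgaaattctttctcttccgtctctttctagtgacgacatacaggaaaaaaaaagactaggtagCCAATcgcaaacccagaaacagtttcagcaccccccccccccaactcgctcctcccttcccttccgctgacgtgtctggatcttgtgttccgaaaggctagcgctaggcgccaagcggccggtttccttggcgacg
Tdg (chr10:82629588-82629887, plus strand): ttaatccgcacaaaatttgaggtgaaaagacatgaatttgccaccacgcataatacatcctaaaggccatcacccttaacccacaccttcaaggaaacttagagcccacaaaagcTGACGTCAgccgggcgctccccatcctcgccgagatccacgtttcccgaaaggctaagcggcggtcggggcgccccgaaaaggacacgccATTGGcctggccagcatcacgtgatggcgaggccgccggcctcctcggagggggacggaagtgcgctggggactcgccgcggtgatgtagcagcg
Msh6 (chr17:87974800-87975099, plus strand): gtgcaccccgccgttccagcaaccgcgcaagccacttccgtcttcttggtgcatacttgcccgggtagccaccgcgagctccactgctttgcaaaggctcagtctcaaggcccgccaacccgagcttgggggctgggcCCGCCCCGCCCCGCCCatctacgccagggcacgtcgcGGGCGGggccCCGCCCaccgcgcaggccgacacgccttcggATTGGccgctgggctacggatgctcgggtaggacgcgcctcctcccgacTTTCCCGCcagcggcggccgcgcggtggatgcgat
Xrcc6 (chr15:82016119-82016418, plus strand): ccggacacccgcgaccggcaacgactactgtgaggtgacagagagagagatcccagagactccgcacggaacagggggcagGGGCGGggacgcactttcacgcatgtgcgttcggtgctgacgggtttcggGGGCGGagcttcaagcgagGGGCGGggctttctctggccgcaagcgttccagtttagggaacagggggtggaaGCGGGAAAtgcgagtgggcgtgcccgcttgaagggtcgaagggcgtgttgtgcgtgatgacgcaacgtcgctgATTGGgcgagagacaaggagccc
Atm (chr9:53536622-53536921, minus strand): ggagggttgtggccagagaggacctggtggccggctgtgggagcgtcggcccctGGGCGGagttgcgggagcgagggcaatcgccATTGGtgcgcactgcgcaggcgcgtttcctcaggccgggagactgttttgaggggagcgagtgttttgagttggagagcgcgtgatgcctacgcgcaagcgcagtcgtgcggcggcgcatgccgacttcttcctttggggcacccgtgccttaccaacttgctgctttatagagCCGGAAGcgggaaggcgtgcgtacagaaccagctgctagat
Smug1 (chr15:103163235-103163534, minus strand): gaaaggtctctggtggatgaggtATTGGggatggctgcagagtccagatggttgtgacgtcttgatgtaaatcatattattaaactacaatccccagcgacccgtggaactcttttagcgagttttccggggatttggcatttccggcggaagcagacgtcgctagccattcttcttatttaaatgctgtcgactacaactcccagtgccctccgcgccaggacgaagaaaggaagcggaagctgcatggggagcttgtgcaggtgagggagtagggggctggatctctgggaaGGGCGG
Fanca (chr8:123318527-123318826, minus strand): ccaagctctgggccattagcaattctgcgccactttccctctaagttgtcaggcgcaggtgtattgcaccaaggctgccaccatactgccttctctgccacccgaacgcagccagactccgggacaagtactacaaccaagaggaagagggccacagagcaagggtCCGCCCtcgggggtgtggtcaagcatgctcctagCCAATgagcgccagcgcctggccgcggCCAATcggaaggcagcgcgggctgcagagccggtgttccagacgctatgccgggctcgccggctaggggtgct

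Among all 17492 genes with an annotated start, CCAAT occurred in 42.3% and GGGCGG in 49.2% of genes, against 18 and 22 of the 32 repair genes. The E2F form TTTCCCGC was found in 5 of 32, namely Brca2, Chek2, Msh6, Rad51c and Xrcc6, against 1.61% of all genes, and TTTGGCGC in 0 of 32 against 0.726%. CCGGAAG was in 9 of 32 against 12.9%, and TGACGTCA in 3 (Brca2, Tdg, Rad51c) against 2.54%. TTTGAA was in 0 of 32 repair genes and in 18.5% of all genes. The median promoter of a repair gene held 22 CpG and 59.3% G or C, against 13 CpG and 56.3% over all 21263 promoter sequences. The number of CpG was 19 at Brca1, 26 at Tdg, 37 at Msh6, 30 at Xrcc6, 28 at Atm, 15 at Smug1 and 19 at Fanca. Brca1 and Fanca, at opposite ends for acetylation, thus had the same number. Relative to the number expected from their C and G content, it was 0.90 at Brca1 and 0.64 at Fanca. The relation of CpG to acetylation over the 32 genes was not tested. The 2 lowest counts were at Fancl (3) and at the farthest upstream of the 3 starts of Lig1 (5). Such matches describe letters in this window and are not measured binding sites.

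H3K4me1 flanked these starts and H3K27ac sat on them. In the HPC lists, the start base itself was under an H3K27ac peak in 84.4% to 93.8% of the 32 repair genes, and in the HSC lists in 56.2% to 65.6%. The corresponding share of all genes was 42.0% to 44.4% in HPC lists and 33.5% to 36.4% in HSC lists. The start base was under an H3K4me1 peak in 0% to 6.25% of repair genes. H3K4me1 reached its highest share downstream, at 700 to 1100 bases into the gene, where 56.2% to 68.8% of repair genes were covered in the lists at 8 weeks and in wild-type HSCs after 5FU, and 25% to 31.2% in the other 3 lists at 16 weeks. The upstream maximum was lower, from 18.8% to 43.8%. Over all genes the share in the lists at 8 weeks was 4.60% to 7.40% at the start, above that of the repair genes in each list, and 28.9% to 36.2% at the downstream maximum, below it.

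**Figure D1:**
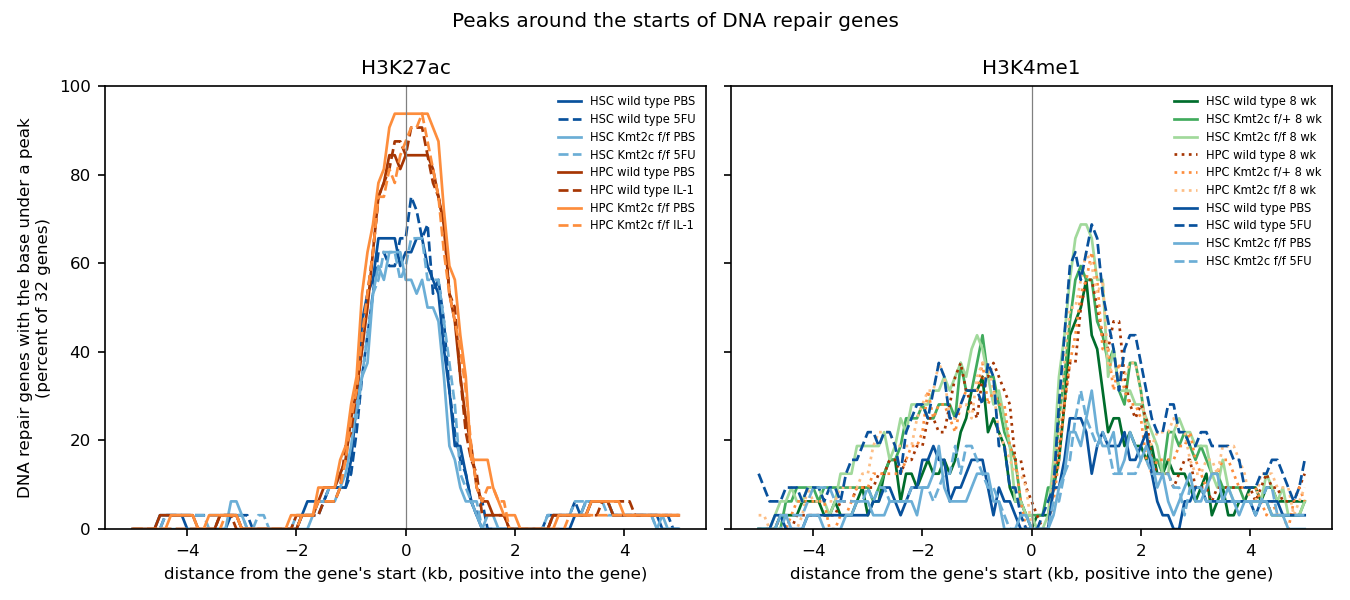
Share of the 32 repair genes (y axis, percent) whose base at a given distance from the start (x axis, kb, positive into the gene) lay under an H3K27ac peak (left) or an H3K4me1 peak (right), 1 line per pooled list. H3K27ac stood over the start at 56.2% to 93.8% with the HPC lists above the HSC lists, while H3K4me1 was at 0% to 6.25% at the start and highest about 1 kb into the gene.

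An H3K4me1 peak came within 1 kb of the start of 25 to 29 of the 32 repair genes in the lists at 8 weeks and of 27 in wild-type HSCs after 5FU, against 50.3% to 56.4% of all genes (52.8%, 51.9% and 55.0% in HPCs of the Kmt2c f/+, Kmt2c f/f and wild-type genotypes, 53.2%, 56.4% and 50.3% in HSCs, and 55.6% after 5FU). It was 17 of 32 in each of the other 3 lists at 16 weeks, against 35.3% in wild-type PBS, 32.7% in Kmt2c f/f PBS and 32% in Kmt2c f/f 5FU HSCs. Within 250 bases of the start the counts were 0 to 5 of 32 in the 10 lists, since H3K4me1 lay beside the start. Ogg1, the 8-oxoguanine glycosylase, and Rad51c, Fancc, Fancl and Atr were among the genes most often without one. Brca1, the most acetylated start, lacked an H3K4me1 peak within 1 kb in those 3 lists and had one in the other 7.

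At their own starts, most repair genes carried longer H3K27ac regions in the HPC lists than in the HSC lists. Of 31 genes with an acetylated start in some list, 18 (58.1%) had more bases in each of the 4 HPC lists than in any of the 4 HSC lists. The background over 9700 genes was 39.2%, and 38.0% among genes of like coverage. The HPC and HSC lists also differ in age, treatment, number of libraries and strength of peaks, which cannot be told apart from cell type. Own-start lengths were not centred on the median gene, and the HPC lists held fewer peaks with a larger share of strong ones. The part of this in the lengths was not tested. The 18 were Brca1, Rad51c, Rad52, Xrcc3, Xrcc6, Lig4, Atm, Chek1, Chek2, Fanci, Fancl, Msh6, Pms2, Parp1, Xrcc1, Lig1, Mbd4 and Ercc1. The rule sets no least difference, and some met it narrowly. The shortest HPC and longest HSC values were 507 and 503 bases at Lig4 and 2726 and 2708 at Brca1.

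Msh6, which binds mismatches in DNA, was the clearest case. Its start region measured 612 bases in wild-type PBS HSCs, 920 after 5FU, 163 in Kmt2c f/f PBS HSCs and 439 after 5FU. In HPCs it measured 2581 bases in wild-type PBS, 2513 after IL-1, 2810 in Kmt2c f/f PBS and 2353 after IL-1, so the HPC and HSC lists did not overlap. Chek1, the replication checkpoint kinase, went from 334 to 387 bases in HSC lists to 1170 to 1489 in HPC lists. Xrcc1, the scaffold of single-strand break repair, went from 520 to 755 bases to 1761 to 1879, and Xrcc3, a gene of homologous recombination, from 190 to 800 to 1624 to 1653. Parp1, the sensor of single-strand breaks, went from 0 to 588 bases to 1059 to 1573.

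The opposite order was seen at 2 of the 31 starts, against a background of 7.37%. Xrcc5, the larger Ku subunit, had 1665 to 1747 bases in HSC lists and 1022 to 1426 in HPC lists. Xpa, which verifies damage in nucleotide excision repair, had 1249 to 1723 bases in HSC lists and 1112 to 1154 in HPC lists. Neither gene's lists overlapped between the cell types, which is the rule by which they were counted.

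**Figure D2:**
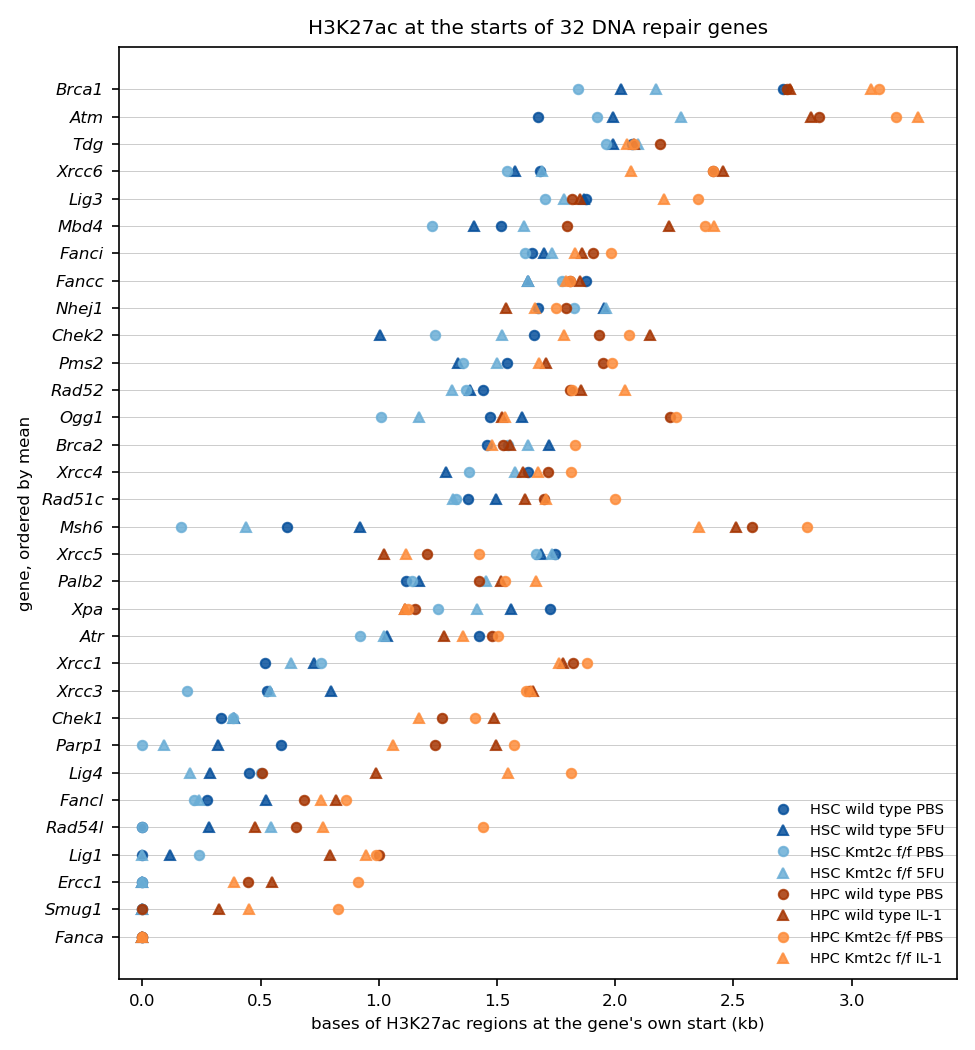
Bases of H3K27ac regions at the own start (x axis, kb) of 32 repair genes (y axis, ordered by mean), with 1 point per pooled list, HSC lists in blue and HPC lists in orange, circles for PBS and triangles for 5FU or IL-1. Brca1, Atm and Tdg lay at the top, Fanca had 0 in every list, and the HPC points of Msh6, Chek1, Xrcc1 and Xrcc3 stood clear of the HSC points.

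Over the whole window, levels ranged widely between genes. By H3K27ac, Xpc, the damage recogniser of nucleotide excision repair (14202 to 22337 bases), and Ercc1 (12218 to 15151) had the most covered bases on average, and Smug1 (0 to 1456) and Fancl, the ubiquitin ligase of the Fanconi complex (240 to 1544), the least. By H3K4me1, Fancc, a core subunit of the Fanconi complex with a gene body of 195959 bases, led with 21702 to 49021 bases, followed by Xpc with 12534 to 29792, while Xrcc5 (0 to 3045) and Xrcc2, a gene of homologous recombination (0 to 2035), had the least. Covered length is not scaled by gene length, so these are orders of bases near a gene. The median repair gene had 4450 to 6216 bases of H3K27ac against 2788 to 3500 for the median of all genes, and 3691 to 10860 bases of H3K4me1 against 2546 to 8230.

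**Figure D3:**
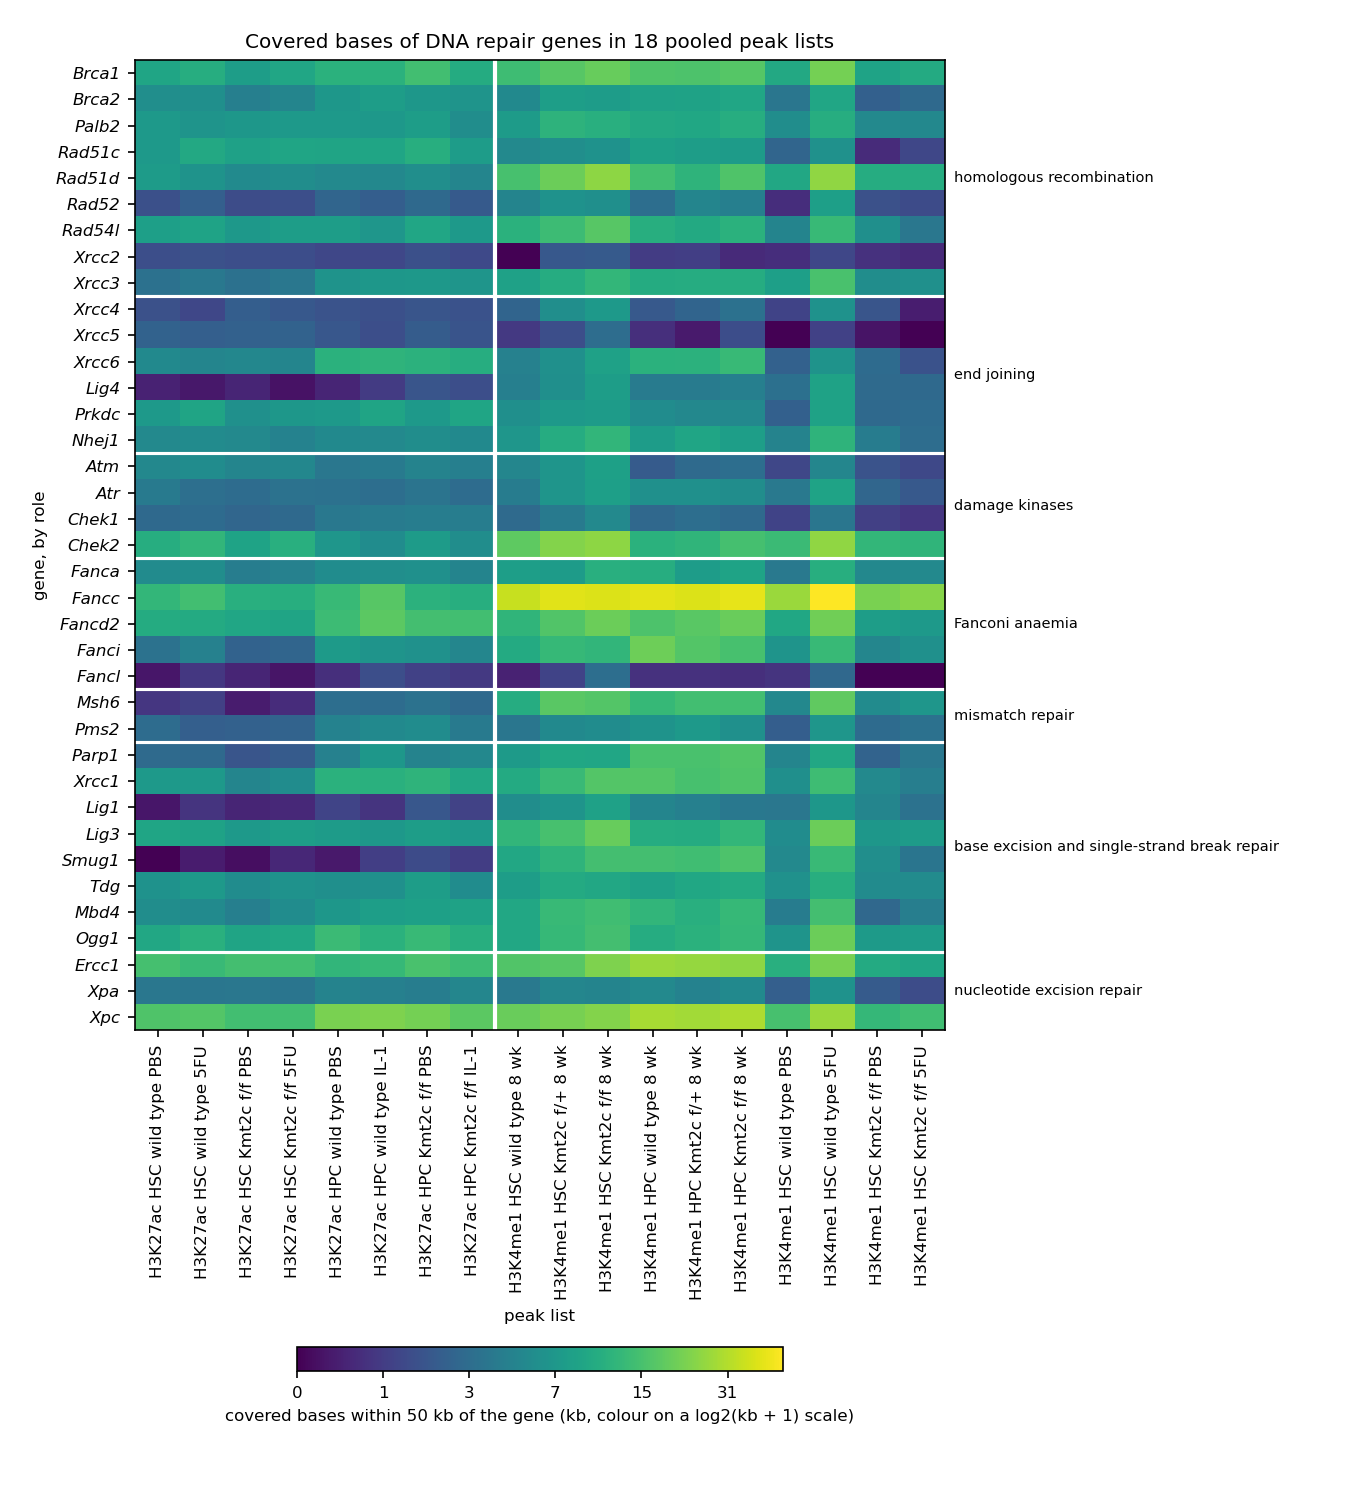
Covered bases within 50 kb of each repair gene (rows, by role) in each pooled list (columns, H3K27ac on the left and H3K4me1 on the right), with colour on a log2(kb + 1) scale. Rows differ more than columns: Fancc and Xpc are bright and Xrcc2, Xrcc5 and Fancl dark, and the columns of 3 H3K4me1 lists at 16 weeks are darker throughout.

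The remaining reference genes lay between those ends, with Fancd2 near the upper end by H3K27ac. Brca1 had 7814 to 14246 bases of H3K27ac and 8718 to 21228 of H3K4me1, Brca2 had 4394 to 7891 and 2335 to 9168, and Atm, the kinase that signals breaks, had 3707 to 5696 and 1295 to 8257. Prkdc, the catalytic subunit of DNA-PK, had 6167 to 8973 and 2321 to 8465, and Fancd2, which is ubiquitinated at crosslinks, had 8844 to 17687 and 7218 to 20464. The uracil glycosylases among the listed genes stood apart from each other: Tdg had 5664 to 7836 bases of H3K27ac and Mbd4 4450 to 8477, while Smug1 stayed at or below 1456. By H3K4me1 the order was not the same, with Smug1 (3544 to 15788) overlapping Tdg (5607 to 10616) and Mbd4 (2773 to 14581).

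Where the bases lay depended on the mark. Of the H3K27ac bases in repair gene windows, 22.4% to 28.7% belonged to regions at the gene's own start, 35.5% to 38.8% to the start of another gene and 33.9% to 39.2% to distal regions, which touched no start window. Over all genes the distal share was 41.3% to 52.8%, and over genes of like coverage 31.5% to 42.8%. Of the H3K4me1 bases, 66.3% to 77.4% were distal, against 71.4% to 79.9% over all genes and 67.4% to 75.4% over genes of like coverage, a range that overlaps that of the repair genes. Starts of another gene lay within 1 kb of the own start for 12 of the 32 genes, for instance Nbr1 at 152 bases from Brca1, Npat at 376 from Atm, Dctn5 at 95 from Palb2 and Abhd13 at 37 from Lig4, so those start regions belong to both genes. Taking the regions of all 8 H3K27ac lists together, 33 of 41 own-start regions were present in every list, against 23 of 213 distal regions, of which 88 were in a single list. The own-start regions include those at either end of the genes without an annotated start. For H3K4me1, 64 of 497 distal regions were in all 10 lists and 190 in a single list.

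Between HPCs and HSCs, distal regions inside Atm and Xrcc6 differed in both marks. In Atm, a region 15064 bases into the gene (chr9:53520916-53522297 on mm10) had H3K4me1 in 6 of 7 HSC lists, with 1093 bases in wild-type, 1186 in Kmt2c f/+ and 1218 in Kmt2c f/f HSCs at 8 weeks, and 0 in each of the 3 HPC lists. The HSC list without it was wild-type PBS at 16 weeks, 1 of the 3 weak lists. H3K27ac covered nearly the same place (chr9:53521243-53522427) in all 4 HSC lists, with 1182 bases in wild-type PBS, 871 in wild-type 5FU, 730 in Kmt2c f/f PBS and 670 in Kmt2c f/f 5FU, and in none of the 4 HPC lists. In Xrcc6, the smaller Ku subunit, a region 11493 bases downstream of its start (chr15:82026769-82028954) had 1799 to 2132 bases of H3K27ac in the 4 HPC lists and 0 in the 4 HSC lists. Its H3K4me1 counterpart (chr15:82026471-82028132) had 1222 bases in wild-type, 1660 in Kmt2c f/+ and 804 in Kmt2c f/f HPCs and 0 in all 7 HSC lists. Another, in the Fancd2 window and inside Emc3 (chr6:113516748-113519851), had 2188 to 3104 bases of H3K27ac in the 4 HPC lists and 0 in the HSC lists.

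Counted over all 213 distal H3K27ac regions of the repair genes, 11 (5.16%) were in all 4 HPC lists and no HSC list, against 1.72% of the 66045 distal regions near any gene. The reverse held for 2 (0.939%), against 3.65%. For H3K4me1, 11 of 497 (2.21%) were in all 3 HPC lists and no HSC list, against 2.03%, and 1 (0.201%) was in all 7 HSC lists and no HPC list, against 0.589%. The latter needs presence in the 3 weak lists too. Among the 6 lists at 8 weeks the counts were 13 of 479 (2.71%) for HPCs alone and 14 (2.92%) for HSCs alone, against 2.64% and 3.41%. The region in all 7 HSC lists lay at chr8:10021277-10023389, in the window of Lig4 and inside Tnfsf13b.

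Over whole windows, H3K4me1 between HPCs and HSCs at 8 weeks moved in both directions at about the rate of other genes. Ratios are relative log2 ratios: 1000 bases were added to both lengths and ratios were then centred so that 0 is the median gene among those reaching 1000 bases in 1 or both lists. The whole-window calls of single genes between 2 lists, here and below, depend on that addition: with 5000 bases added, 6 stayed past 1.5-fold, 37 fell below it and 1 turned. The median repair gene was at 0.01 in wild type (17 of 34 above 0), −0.13 in Kmt2c f/+ (13 of 37) and −0.07 in Kmt2c f/f (16 of 37). Higher in HPCs by 1.5-fold or more were 3, 3 and 2 genes, against 9.84%, 9.16% and 8.92% of all genes, and lower were 3, 5 and 5, against 9.15%, 10.8% and 12.6%. In all 3 genotypes, Parp1 and Xrcc6 were higher (background 4.65%) and Atm was lower (background 4.4%), 3 of the 34 genes measured in each.

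Parp1 had 7422, 9329 and 9122 bases of H3K4me1 in HSCs of wild-type, Kmt2c f/+ and Kmt2c f/f mice and 15238, 15341 and 16297 in HPCs, with relative log2 ratios of 0.69, 0.69 and 0.91. Part of the difference lay upstream of the gene at chr1:180540414-180542737 and at the end of the gene at chr1:180599891-180603177. At the latter, HPC lists had 2904 to 3255 bases and HSC lists at 8 weeks 304 to 1023. Xrcc6 had 4600, 6173 and 8422 bases in HSCs and 11200, 11403 and 12899 in HPCs, with ratios of 0.87, 0.82 and 0.70. Atm had 5015, 6701 and 8257 bases in HSCs and 2079, 2860 and 3137 in HPCs, with ratios of −1.22, −0.96 and −1.02. In each of these 3 genes the HSC and HPC lists at 8 weeks did not overlap. The genes were picked by ratios of the same lists, so this is no further evidence.

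Chek2, the checkpoint kinase downstream of ATM, was lower in HPCs by −0.89 in wild type and −0.87 in Kmt2c f/+, from 18089 to 11250 and from 23252 to 11940 bases. Inside its body, chr5:110858217-110861229 had 2410 to 2803 bases in HSCs at 8 weeks and 0 to 631 in HPCs. Xrcc4, the partner of ligase IV, was lower in Kmt2c f/+ (5920 to 2517 bases) and in Kmt2c f/f (7336 to 3323). Fanci, the partner of FANCD2, was higher in wild type, from 9945 to 20060 bases. The genes below 1.5-fold included Brca1, with 13804, 16969 and 19039 bases in HSCs and 16044, 15859 and 16747 in HPCs, where the cell types overlapped.

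Some of the same genes were apart by H3K27ac. The 4 HPC lists lay above the 4 HSC lists, with means at least 1.5-fold apart against the median gene, at 6 of 37 repair genes (background 9.61%) and below them at 1 (background 9.56%). The 6 were Xrcc3, Xrcc6, Fanci, Msh6, Pms2 and Parp1. Xrcc6 had 10471 to 11724 bases in HPC lists and 4890 to 5364 in HSC lists, Parp1 had 4595 to 6970 and 1800 to 2878, and Msh6 had 2825 to 3361 and 344 to 1096. Pms2, an endonuclease of mismatch repair, had 3972 to 5715 and 2252 to 3016. The gene below was Chek2, with 5672 to 7559 bases in HPC lists and 8654 to 12212 in HSC lists. Atm, at 3707 to 4714 against 4909 to 5696 bases, did not overlap but was within 1.5-fold by its relative ratio of −0.42. Its own start region was longer in HPCs (2830 to 3282 bases against 1673 to 2279), and 2 regions of its window were found in HSC lists alone, the one inside the gene and one at chr9:53401961-53403780 over the starts of 4930550C14Rik and Poglut3 (906 to 1697 bases). The 2 marks share the cell type labels but neither libraries nor mice by the labels.

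**Figure D4:**
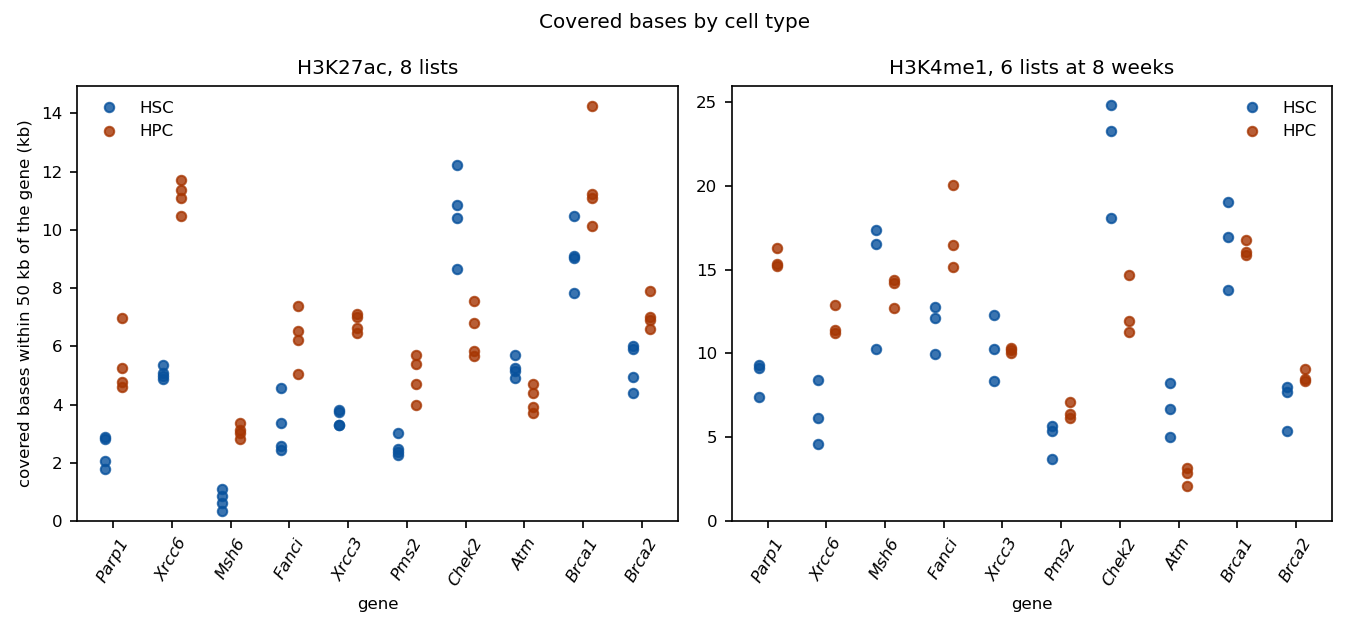
Covered bases within 50 kb (y axis, kb) of 10 repair genes in HSC lists (blue) and HPC lists (orange) for H3K27ac (left, 4 lists per cell type) and H3K4me1 at 8 weeks (right, 3 genotypes per cell type). Parp1 and Xrcc6 lay higher in HPCs and Chek2 and Atm higher in HSCs for both marks, and Msh6 was apart by H3K27ac alone.

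After 5FU, H3K27ac summed over whole windows in HSCs was within 1.5-fold of PBS at every repair gene that could be measured. In wild type, 0 of 33 genes were higher (background 1.19%) and 0 lower (background 0.863%), with ratios from −0.36 to 0.31 and a median of −0.02. In Kmt2c f/f, 0 of 32 were higher (background 1.33%) and 0 lower (background 1.03%), with ratios from −0.21 to 0.26 and a median of 0.02. Brca1 had 9034 bases in PBS and 10480 after 5FU in wild type and 7814 and 9105 in Kmt2c f/f. Tdg had 6390 and 7343 bases in wild type and 5717 and 6320 in Kmt2c f/f, and Mbd4 had 5807 and 5464, and 4450 and 5739. Parp1 had 2878 and 2831 bases, and 1800 and 2064. Smug1 had 0 and 348 bases, and 163 and 551, below the 1000 bases needed for a ratio.

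Split by place, own-start regions gave 0 of 25 genes past 1.5-fold after 5FU in either direction in both genotypes (background 1.6% higher and 1.11% lower in wild type, 1.03% and 1.57% in Kmt2c f/f). Distal regions gave 1 of 19 higher (background 4.17%) and 0 lower (background 3.43%) in wild type, and 1 of 17 higher (background 5.14%) and 0 lower (background 3.85%) in Kmt2c f/f. These were Prkdc, from 316 to 1555 distal bases, and Xrcc1, from 444 to 1694. Both values depend on how peaks broke apart in each list: after the regions of the 8 lists were joined, the distal region of Xrcc1 had 0 and 301 bases and the remainder joined the start of Phldb3, and part of the Prkdc bases joined the starts of Cebpd and Spidr. Rad54l, the recombination translocase, had no own-start region in PBS and regions of 282 bases in wild type and 546 in Kmt2c f/f after 5FU. No other repair gene gained an own-start region after 5FU in both genotypes. The share of all genes with such a gain was not computed. Both regions were short, and the part of the peak threshold in the gain was not tested.

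For H3K4me1 after 5FU, the lists themselves differed in length. In wild type, the median gene rose by 1.02 (log2) between the PBS and the 5FU list, and ratios are relative to it. The median repair gene was at 0.08 with 24 of 37 above, beside 0.07 for genes of like coverage. Higher by 1.5-fold were 4 of 37 (background 7.46%) and lower 0 (background 2.35%). The 4 were Rad52, a mediator of strand annealing, from 680 to 8081 bases (1.42), Xrcc4, from 1205 to 6320 (0.71), Msh6, from 5210 to 18379 (0.62), and Lig3, the ligase of XRCC1, from 5729 to 19659 (0.60). Xrcc4 turned to −0.15 when both lists were limited to equal covered bases, and Lig3 to −0.03 within 10 kb. In Kmt2c f/f, where the median gene moved by 0.00, the repair genes had a median of −0.01, with 0 of 34 higher (background 3.26%) and 2 lower (background 5.11%). Those were Xrcc4, from 1788 to 372 bases (−1.03), and Smug1, from 5955 to 3544 (−0.62). The wild-type 5FU list is longer than the other 3 and joins 2 library series, and the part of this in the ratios was not tested.

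**Figure D5:**
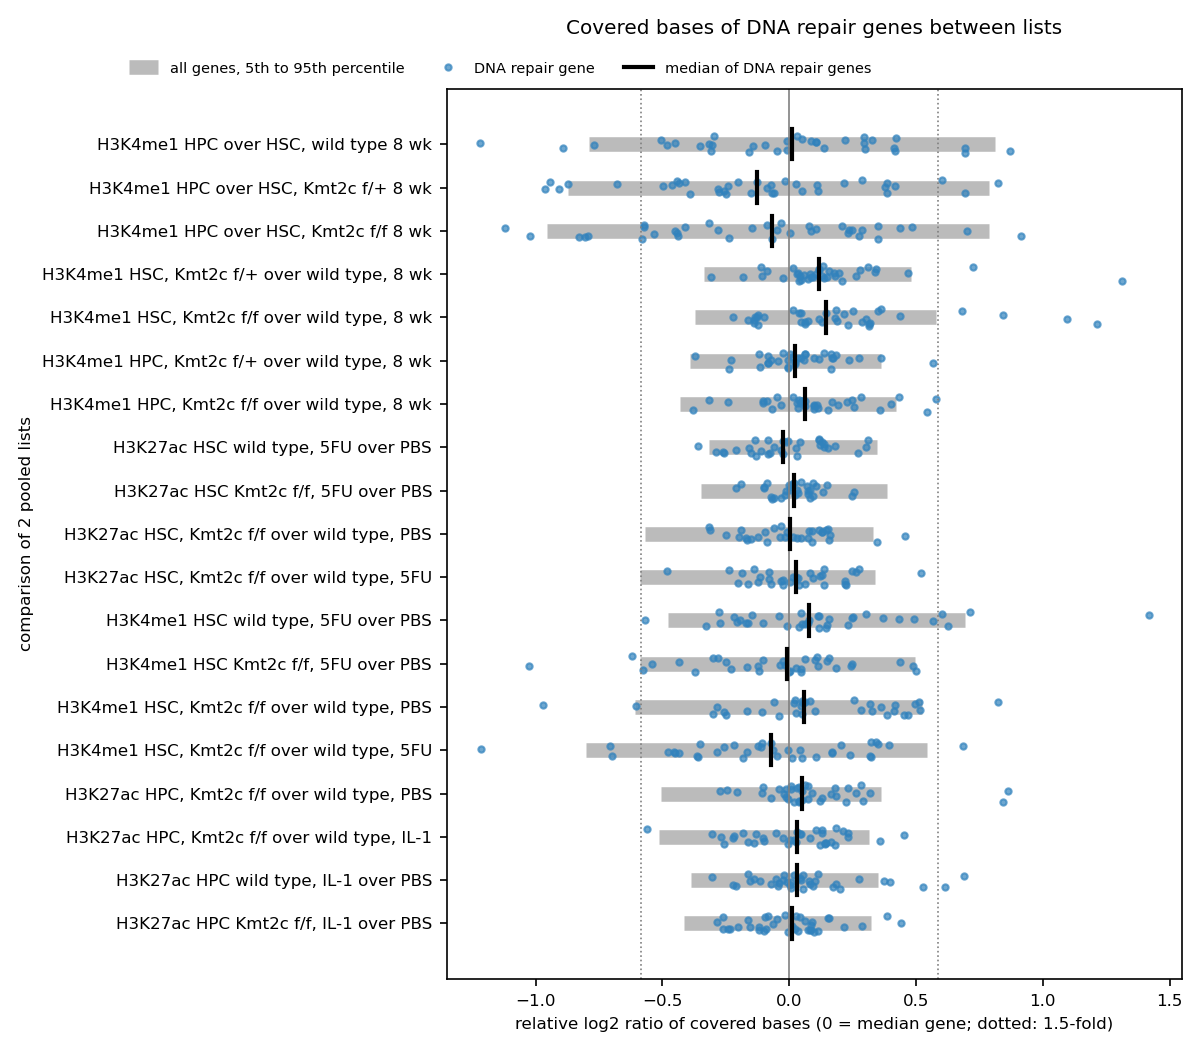
Relative log2 ratio of covered bases (x axis, 0 = median gene, dotted lines at 1.5-fold) for each repair gene (blue points) in the 19 comparisons of 2 pooled lists (y axis), with the median of the repair genes (black) and the 5th to 95th percentile of all genes (grey). Points of the H3K27ac comparisons of 5FU over PBS lay between −0.36 and 0.31, and the black medians of all comparisons lay between −0.13 and 0.14.

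With Kmt2c altered, most repair genes lay slightly above the median gene by H3K4me1 over the whole window in HSCs at 8 weeks. The median repair gene was at 0.12 in Kmt2c f/+ with 31 of 37 above 0, and at 0.14 in Kmt2c f/f with 28 of 37 above. With 5000 bases added the former became 0.055. At the own starts this was not seen, with 10 of 20 above in each genotype (medians 0.03 and −0.02). Distal regions gave 19 of 35 and 21 of 37 above (medians 0.05 and 0.09), and regions at other genes' starts 14 of 23 and 17 of 24 (medians 0.12 and 0.44). Among genes of like coverage, 55.0% and 56.5% were above 0, with medians of 0.03 and 0.04. The median gene itself rose by 0.24 and 0.39 (log2), and the wild-type list was the smallest of the 6 at 8 weeks. List size and genotype cannot be told apart here. Both comparisons share that wild-type list, so they are not independent of each other. Higher by 1.5-fold were 2 of 37 in Kmt2c f/+ (background 2.92%) and 4 of 37 in Kmt2c f/f (background 4.86%), and 0 were lower in each (background 1.02% and 1.01%).

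These were genes of low coverage. Xrcc2 had 0 bases in wild type, 1929 in Kmt2c f/+ and 2035 in Kmt2c f/f HSCs. The H3K4me1 region at its start (chr5:25704362-25705419) was in 9 of the 10 lists, so the wild-type list at 8 weeks was the exception. Xrcc2 lies on the same chromosome as Kmt2c, 190959 bases away, and the part of that position in its values was not tested. Xrcc4 had 2552, 5920 and 7336 bases, Xrcc5 had 925, 1564 and 3045, and Fancl had 465 bases in wild type and 3095 in Kmt2c f/f. By role, the end joining genes had medians of 0.15 (6 of 6 above) in Kmt2c f/+ and 0.36 (5 of 6) in Kmt2c f/f, the 2 mismatch repair genes 0.34 and 0.19 with both above, and the nucleotide excision genes the lowest, −0.11 and −0.14 with 1 of 3 above in each. With 2 to 9 genes in a role, these medians only describe the lists.

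In HPCs at 8 weeks no repair gene passed 1.5-fold over its whole window. In Kmt2c f/+ it was 0 of 35 in either direction (background 1.5% higher and 1.8% lower) with a median of 0.02, and in Kmt2c f/f 0 of 35 (background 2.04% and 2.48%) with a median of 0.06. Split by place, some did. At own starts 4 of 19 were higher (background 9.27%) and 1 lower (background 11.4%) in Kmt2c f/+, and 6 of 21 higher (background 10.2%) and 0 lower (background 12.7%) in Kmt2c f/f. At other genes' starts it was 1 of 23 higher (background 6.89%) and 1 lower (background 8.46%), and 5 of 26 higher (background 8.29%) and 0 lower (background 8.9%). Distal regions gave 2 of 33 higher (background 3.91%) and 1 lower (background 3.63%), and 1 of 33 higher (background 5.95%) and 2 lower (background 4.54%). The split moves where a peak's edge lies near 1 kb from a start: Parp1 had 273, 2016 and 2080 own-start bases in wild-type, Kmt2c f/+ and Kmt2c f/f HPCs, while the region chr1:180569445-180572151 just inside the gene had 1839, 1978 and 2080. The difference between HSCs and HPCs in this respect was not tested. Brca2 had 5366, 8018 and 7712 bases in HSCs of wild-type, Kmt2c f/+ and Kmt2c f/f mice and 8330, 8503 and 9064 in HPCs. Fancd2 had 11843, 16374 and 19914 bases in HSCs and 15824, 17396 and 19388 in HPCs. Xpc had 19425, 21280 and 23271 in HSCs and 28840, 28119 and 29792 in HPCs. In all 3 genes the wild-type HSC list was the lowest of the 6. It was also the smallest list, at 86.1 Mb against 101.6 to 113.5 Mb, and these lengths are not centred on the median gene. The share of all genes with that order was not computed.

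At 16 weeks, H3K27ac of Kmt2c f/f HSCs over whole windows differed from wild type by less than 1.5-fold at every repair gene measured. After PBS, 0 of 32 were higher (background 0.768%) and 0 lower (background 4.7%), with a median of 0.01 and a range of −0.32 to 0.46. After 5FU, 0 of 33 were higher (background 0.655%) and 0 lower (background 5.08%), with a median of 0.03 and a range of −0.48 to 0.52. Split by place after 5FU, 1 of 19 was higher (background 5.5%) and 1 lower (background 8.09%) in distal regions, Xrcc1 from 1108 to 1694 and Fanci from 1662 to 82 bases. At other genes' starts, 0 of 24 were higher (background 0.445%) and 1 lower (background 3.55%), Brca2 from 1326 to 187. After the regions of the 8 lists were joined, the Brca2 region over the start of N4bp2l1 had 1326 and 653 bases, a smaller difference. The Xrcc1 value also depends on how peaks broke apart, as given above. For H3K4me1 over whole windows after PBS, 1 of 34 was higher (background 3.84%) and 2 lower (background 5.48%). Rad52 went from 680 to 1632 bases, Rad51c from 2573 to 613 and Parp1 from 4932 to 2452, which turned to 0.09 within 10 kb. After 5FU, 1 of 37 was higher (background 3.81%) and 3 lower (background 10.4%), where the median gene fell as well. The 3 were Xrcc4, from 6320 to 372 bases, Fancl, from 2752 to 0, and Rad52, from 8081 to 1430, and the 1 was Xrcc2, from 1293 to 602, whose fall was smaller than the median gene's. Rad52 turned to 0.31 with equal covered bases in both lists and Fancl to 0.14 with 5000 bases added.

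In HPCs, few repair genes passed 1.5-fold by H3K27ac over whole windows between genotypes or after IL-1. In Kmt2c f/f against wild type after PBS, 2 of 37 were higher (background 1.34%) and 0 lower (background 3.39%). These were Lig4, from 507 to 1812 bases, and Smug1, from 299 to 1456. After IL-1, 0 of 37 passed in either direction (background 0.764% higher and 3.34% lower). IL-1 against PBS gave 2 of 36 higher in wild type (background 1.35%), namely Smug1, from 299 to 1070 bases, and Fancl, from 683 to 1544, with 0 lower (background 1.91%), and 0 of 37 in Kmt2c f/f (background 1.09% higher and 2.06% lower). Both comparisons that name Smug1 share the wild-type PBS list, where it had no start peak. Distal regions alone gave 1 of 23 higher and 0 lower between genotypes after PBS (background 7.17% and 7.36%), 0 of 21 and 1 after IL-1 (6.06% and 6.71%), and with IL-1 2 of 22 and 1 in wild type (6.46% and 7.33%) and 1 of 23 and 3 in Kmt2c f/f (6.54% and 7.44%). Chek2 was lower with IL-1 in both genotypes, from 1166 to 0 and from 1482 to 0 distal bases, and Parp1 higher in both, from 1489 to 3401 and from 1069 to 1985. The share of all genes called alike in both genotypes was not computed. Neither gene passed 1.5-fold over its whole window. The Chek2 bases in PBS lay in separate regions of 215 to 666 bases in wild type and 183 to 1064 in Kmt2c f/f. The part of the peak threshold in their loss was not tested. At other genes' starts, Tdg was 1 of 25 higher between genotypes after PBS, from 2133 to 4142 bases, with 0 lower (background 1.19% and 1.68%). With IL-1, Brca2 was 1 of 25 higher in wild type, from 1517 to 2819, with 0 lower (1.05% and 1.53%), and Brca1 was 1 of 25 lower in Kmt2c f/f, from 9318 to 5124, with 0 higher (2.16% and 0.495%). Both differences were smaller after the regions of the 8 lists were joined. The Brca2 region over the start of N4bp2l1 then had 2111 and 2565 bases, with a second of 461 after IL-1. For Brca1, the region over Vat1 had 4136 bases in PBS and 3150 after IL-1, and that over Rpl27 had 1294 and 1337. At own starts, 1 of 33 was higher between genotypes after PBS (background 1.78%) and 0 lower (background 1.77%), and that was Lig4. The 33 include genes without an annotated start, by the ends of their gene body. Lig4 had 507, 988, 1812 and 1545 bases at its start in wild-type PBS, wild-type IL-1, Kmt2c f/f PBS and Kmt2c f/f IL-1 HPCs.

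Other genes of the pathways were counted from separate lists. The background of all genes for H3K27ac after 5FU in HSCs was 1.19% higher and 0.863% lower in wild type, and 1.33% and 1.03% in Kmt2c f/f. Of 59 further repair genes, 56 could be measured by H3K27ac after 5FU in wild-type HSCs, where 0 were past 1.5-fold in either direction and the median was −0.03, and 1 of 56 was higher and 0 lower in Kmt2c f/f. That 1 was Rbbp8, which encodes the resection factor CtIP, from 2356 to 4774 bases. In Kmt2c f/f HSCs at 8 weeks, 38 of 57 of them were above the median gene by H3K4me1, 7 were higher by 1.5-fold and 0 lower, with a median of 0.07, against 4.86% of all genes called higher and 56.5% of genes of like coverage above. In Kmt2c f/+ HSCs 32 of 57 were above, with 2 higher (background 2.92%) and 0 lower (background 1.02%). In Kmt2c f/f HPCs 28 of 57 were above, with 2 higher (background 2.04%) and 2 lower (background 2.48%). Of 14 genes of uracil and fluoropyrimidine metabolism, 12 were measured by H3K27ac after 5FU in wild type, with 0 higher and 1 lower, Shmt2, a mitochondrial source of one-carbon units for thymidylate, from 6961 to 4376 bases. In Kmt2c f/f after 5FU, 0 of the 12 passed in either direction. Of 18 p53 target genes, 16 were measured in each genotype and 0 passed. Of the 26 cell cycle and replication genes 0 passed in wild type. In Kmt2c f/f, 1 of the 26 was higher, Cdk1 (335 to 1218 bases, background 1.33%), and 1 lower, Ccne1 (1937 to 986, background 1.03%).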

How the data were processed

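Per the submitters' processing notes, reads were aligned with Novoalign to mm10 (GRCm38) and peaks called with MACS2; their versions, the peak filter and the read depth were not stated in any source used here. The authors deposited 1 peak list for the pooled libraries of each of 18 groups, each peak with the fold enrichment and the −log10 p and q values from the authors' caller. Depth being unknown, no counting interval could be given, and 1 list per group allowed no test.

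Overlapping peaks were merged, and bases covered within 50 kb of each gene body were summed with Python 3.11.15, numpy 2.4.6 and pandas 2.3.3. All 37 members matched the RefSeq gene table. A region within 1 kb of a gene's start was its own-start region, one at another gene's start an other-start region, and the rest distal. For the 5 members with no start in the promoter table, either end of the gene body was taken for this split. They were left out of counts at annotated starts but not of own-start regions and ratios. Ratios added 1000 bases to each length, and 1.5-fold against the median gene was the threshold. The code was tested on simulated data. The members and lists were chosen with earlier results of these data known. By rule, the text names 12 reference members, up to 3 members in each direction past 1.5-fold in a comparison, members lacking an H3K27ac start peak in some list, the 2 highest and 2 lowest per mark, and up to 2 genes per direction from each other list. Further members, including Lig3 after 5FU, those apart between cell types and the distal regions, were named after their values were seen. Motifs and start counts were computed for all genes alike. The alternatives were a 10 kb window, 5000 bases added, a −log10 p of at least 3, lists limited to equal peaks or equal covered bases, and other start windows. Input samples were left out.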

Additional observations from a re-analysis of the deposited data

Results flagged for a closer look

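Xrcc4, the partner of ligase IV, went opposite ways by H3K4me1 after 5FU in HSCs of the 2 genotypes. Its relative log2 ratio was 0.71 in wild type, from 1205 to 6320 bases, and −1.03 in Kmt2c f/f, from 1788 to 372 bases. Such a pair of opposite ratios past 1.5-fold was seen for 1 of 34 repair genes and for 0.671% of all genes. The difference was not tested, since each value comes from 2 pooled lists. With equal covered bases in both lists the wild-type ratio was −0.15.

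Rad52, a mediator of strand annealing, went opposite ways by H3K4me1 in Kmt2c f/f against wild-type HSCs at 16 weeks. The ratio was 0.82 after PBS, from 680 to 1632 bases, and −0.70 after 5FU, from 8081 to 1430 bases. This was 1 of 34 repair genes, against 0.615% of all genes, and the difference was not tested. With equal covered bases the ratio after 5FU was 0.31.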

How the results depend on the processing

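No paired analysis was possible because each group has 1 pooled list and no replicate columns, and for the same reason no replicate could be left out. Of 114 medians under the alternatives 112 stayed inside an interval around the reported median set by the scatter between repair genes. Such an interval can hold a median of another size or sign, so staying inside it does not mean unchanged. The median in Kmt2c f/+ HSCs at 8 weeks became 0.055 with 5000 bases added, and that of Kmt2c f/f against wild-type HSCs after 5FU (H3K4me1) became 0.17 with equal covered bases. H3K4me1 start counts within 250 bases were 4, 4 and 5 in Kmt2c f/+, Kmt2c f/f and wild-type HPCs, 5, 3 and 3 in HSCs at 8 weeks, and at 16 weeks 4 and 1 in wild-type 5FU and PBS and 0 and 1 in Kmt2c f/f 5FU and PBS HSCs. With at least 250 bases of the start window covered they were 8 in both Kmt2c f/f lists and 9 in wild-type PBS at 16 weeks, and within 2.5 kb 26 in the latter. Of 206 values for single genes, 149 stayed on their side of 1.5-fold, 52 fell below it and 5 turned. With 5000 bases added alone, 6 stayed, 37 fell below and 1 turned. Those were Xrcc4 after 5FU in wild type (−0.15, equal covered bases), Lig3 in the same comparison (−0.033, 10 kb), Parp1 in Kmt2c f/f after PBS (0.094, 10 kb), and in Kmt2c f/f after 5FU Rad52 (0.31, equal covered bases) and Fancl (0.14, 5000 bases added), all by H3K4me1. The cause was not tested. Unknown depth limits every comparison between lists.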
